A study of Mus musculus with 6 samples.

Results

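The Sprouty and Spred genes and Il17rd encode feedback inhibitors of growth factor signalling. They were selected by symbol, with earlier results of these data known, and all 7 (Spry1, Spry2, Spry4, Spred1, Spred2, Spred3 and Il17rd) were found among the 46078 genes of the deposited tables. Polyadenylated RNA had been sequenced from wild-type mouse mesoderm explants taken at E7.25 (embryonic days), left on fibronectin for 3 to 4 h and then kept in culture, for 27 h by the growth protocol and 24 h by the description of the series, which also names a TCF/Lef:H2B-GFP reporter strain. The groups were 2 control libraries, 2 libraries from explants given 1 µM PD for 16 h, and 2 from explants given 10 µM YZ9 for 16 h. The labels do not spell out PD or name its target. The prefix is shared by several widely used inhibitors of the kinase MEK but is not limited to them. The labels also do not say whether the controls received vehicle. YZ9 is a small molecule described as blocking PFKFB3, whose product stimulates glycolysis. Each library is an explant preparation of mixed mesoderm, so fewer cells of a type and less RNA per cell cannot be told apart.

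Growth factors such as FGFs act through receptor tyrosine kinases, which switch on RAS and, through RAF and MEK, the kinase ERK. Active ERK induces genes whose products dampen the same pathway. Sprouty proteins act at the level of receptor adaptors and RAF, Spred proteins bring the RAS-GAP neurofibromin (Nf1) to the membrane where it switches RAS off, and Il17rd, also called Sef, is a membrane protein that restrains FGF signalling. Transcripts of these genes are widely used as readouts of FGF and ERK activity in the gastrulating embryo, where FGF8 and FGF4 guide mesoderm away from the primitive streak.

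In GENCODE M21 (GRCm38) all 7 are protein-coding. Spry1 (ENSMUSG00000037211) lies on chromosome 3, 37639947 to 37644598, and Spry2 (ENSMUSG00000022114) on chromosome 14, 105891947 to 105896819. The position of Spred1 (ENSMUSG00000027351) is chromosome 2, 117121374 to 117182279. Spred2 (ENSMUSG00000045671) lies on chromosome 11, 19924375 to 20024026, Spred3 (ENSMUSG00000037239) on chromosome 7, 29158829 to 29170411, and Il17rd (ENSMUSG00000040717) on chromosome 14, 27038941 to 27107286. The library kit keeps no strand. Exons of Gm42922, on the opposite strand, cover 710 bases or 24.4% of the exon bases of Spry1, and exons of Ggn cover 202 bases or 3.25% of those of Spred3, so reads from these stretches cannot be assigned to a strand. The other 5 genes share no exon base with a gene on either strand.

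Spry4 was left out of the promoter search, so whether it has these sites was not examined. RefSeq promoter windows (GRCm38.p6), from 250 bases before to 50 bases after the RefSeq start, were matched by symbol for the other 6 genes: Spry1, Spry2, Spred1, Spred2, Spred3 and Il17rd. They were searched on both strands for CGGAAG and AGGAAG, forms of the site read by ETS factors, which ERK regulates, for the AP-1 site TGANTCA and for the CRE TGACGTC. The 250 bases before the start are shown for Spred1 and Spred2, the 2 genes with a match, and for Spry2, the most abundant member, which had none. Each is written 5′ to 3′ along the gene, with matches in capitals.
Spred1, chr2:117120821-117121070 (plus strand): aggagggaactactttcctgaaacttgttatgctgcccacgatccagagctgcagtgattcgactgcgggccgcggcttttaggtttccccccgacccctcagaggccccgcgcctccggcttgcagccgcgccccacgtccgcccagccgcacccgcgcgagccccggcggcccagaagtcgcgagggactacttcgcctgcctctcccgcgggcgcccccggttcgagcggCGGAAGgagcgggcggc
Spred2, chr11:19924192-19924441 (plus strand): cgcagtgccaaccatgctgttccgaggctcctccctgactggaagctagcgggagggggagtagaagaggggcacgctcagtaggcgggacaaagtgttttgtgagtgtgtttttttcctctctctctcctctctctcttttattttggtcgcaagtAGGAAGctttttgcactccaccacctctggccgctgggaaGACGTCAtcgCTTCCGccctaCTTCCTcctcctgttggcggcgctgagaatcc
Spry2, chr14:105896820-105897069 (minus strand): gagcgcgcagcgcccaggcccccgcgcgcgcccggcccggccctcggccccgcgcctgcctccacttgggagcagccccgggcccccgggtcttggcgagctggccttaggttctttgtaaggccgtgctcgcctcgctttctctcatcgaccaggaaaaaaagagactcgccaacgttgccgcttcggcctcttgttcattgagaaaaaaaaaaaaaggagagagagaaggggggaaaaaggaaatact
The capitals in Spred1 mark CGGAAG with its first base 17 bases before the start, and a reverse-strand match lay at base 8 after the start, outside the printed stretch. In Spred2 the capitals mark AGGAAG at 93 bases, the CRE on the reverse strand at 53 bases, CGGAAG on the reverse strand at 43 bases and AGGAAG on the reverse strand at 32 bases before the start. Thus CGGAAG was found in 2 of 6 windows against 16.9% of the 32851 promoters in the table, AGGAAG in 1 of 6 against 35.4%, the CRE in 1 of 6 against 3.21%, and the AP-1 site in 0 of 6 against 7.81%. The promoters compared were not matched for base composition. The share of G and C was 55% (Spred3) to 72.3% (Spred1) in the 6 windows, against a median of 52.7% over all promoters. A window without a match lacks only these letters within its 300 bases. RefSeq starts can differ from the GENCODE positions given above: the Spred3 window (chr7:29168598-29168897) lies inside the GENCODE gene.

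Library totals ran from 21253194 to 27810161 counts, and the mean chi-square per gene between replicate libraries was 51.9 to 90.7, far above the value of about 1 that sampling alone gives. The labels do not say whether libraries of 1 group derive from different embryos or cultures, so p-values measure only the spread between these libraries. Both controls and replicate 1 of each inhibitor group had 4286 to 9736 counts of 4 Y-linked genes and 0 to 1 of Xist, whereas replicate 2 of each inhibitor group had 0 to 3 and 2119 to 3956. The 2 PD libraries, and likewise the 2 YZ9 libraries, therefore hold different embryos. For the 2 controls these counts do not show whether the embryos differ, so how much of their spread is technical is unknown. The 15 mesoderm markers were read in CPM (counts relative to the effective library size, so that libraries are comparable). Among streak and early mesoderm genes T was at 0 in the controls, Tbx6 and Mesp1 reached no more than 0.134 and 0.269 CPM in any library, and Mixl1 ranged from 0.0384 CPM in PD replicate 1 to 11.0 CPM in YZ9 replicate 2. Among lateral and cardiac mesoderm genes Kdr, Hand1, Tbx20 and Meis1 were at 45.0 to 603 CPM, Foxf1 at 3.43 to 35.7 CPM and Prrx1 at 1.55 to 10.6 CPM. The summed mesoderm list ranged from 1729 to 2217 CPM in untreated explants, 1797 to 2208 in PD libraries and 1637 to 1674 in YZ9 libraries. Vim was the largest part of each sum, at 1283 and 1081 CPM in the controls and 849 and 763 CPM with PD. Pdgfra was at 25.1 and 18.0 CPM in the controls and 74.2 and 92.3 CPM with PD. Of the 12 tested, 2 were higher and 2 lower with PD at an edgeR unadjusted p under 0.05, at a median log2 fold change of 0.06. Over all genes tested, 10.8% reached that p with PD in either direction. Similar sums therefore do not show an unchanged make-up.

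Untreated explants expressed all 7 genes. Levels can be compared between genes only per kilobase (RPKM, CPM divided by the exon length in kilobases). Spry2 was highest, at 42.8 ± 8.89 RPKM (SD, n = 2), followed by Spred1 at 7.59 ± 0.325 RPKM. Next came Spry4 at 5.25 ± 0.402 RPKM and Spry1 at 5.22 ± 0.898 RPKM, whose libraries overlapped. Spred2 was at 1.78 ± 0.552 RPKM. Il17rd at 0.865 ± 0.297 RPKM and Spred3 at 0.676 ± 0.126 RPKM were lowest, and their libraries overlapped too. Within each control Il17rd was above Spred3 by exon length, but not in control replicate 2 by the longest transcript. With the longest transcript as the length, Spry1 (5.47 RPKM) stood above Spry4 (5.25 RPKM) and the rest of the order was kept. In YZ9 explants Spry2 was again highest, at 39.6 ± 5.33 RPKM, and Spred1 next, at 7.02 ± 1.11 RPKM. With YZ9, the libraries of Spred1 and Spry1, of Spry1 and Spry4, of Spred2 and Il17rd, and of Il17rd and Spred3 overlapped. Within each YZ9 library, however, the first gene of each of these pairs was the higher by exon length. With the longest transcript as the length, mean Il17rd (1.58 RPKM) stood above Spred2 (1.52 RPKM) with YZ9.

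The first comparison set PD against control. All 7 genes were lower in both PD libraries than in both controls, and the mean CPM with PD was between 0 and 17.7% of that in controls. Spry2, Spry4 and Spred1 fell past the threshold in edgeR's quasi-likelihood test (Benjamini-Hochberg adjusted p under 0.05 over 15568 genes), and 0 genes of the group rose. Over all genes, 12 or 0.0771% fell. Ordered by edgeR p, Spred1 was first of the 15568 genes and Spry4 was second. By adjusted p in the authors' deposited table, Spred1 ranked 6 and Spry4 ranked 27.

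**Figure D1:**
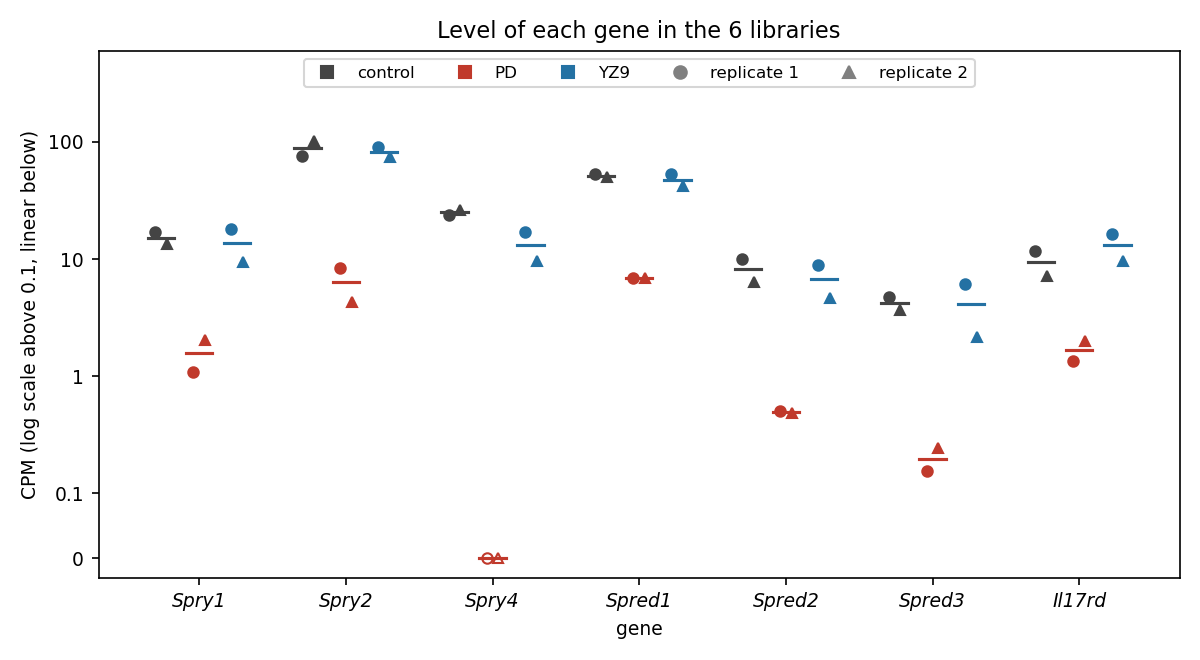
Level of each gene in CPM (vertical axis, logarithmic above 0.1 and linear below) in the 6 libraries, coloured by group, with circles for replicate 1, triangles for replicate 2 and bars for the group mean (n = 2). For every gene both PD libraries (red) sit below both controls (dark grey), Spry4 is at 0 in both, and the YZ9 libraries (blue) sit near the controls, except for Spry4, which is below them.

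The Sprouty genes differed in how much transcript was left. Spry4 had 630 and 699 counts in the controls (23.6 and 26.3 CPM) and 0 counts in both PD libraries. Taking 3 counts in the PD group as the floor, it was at least 423-fold lower (adjusted p = 0.0378). It was the only member with no count in a library. Spry2, at 76.3 and 102 CPM in the controls, was at 8.42 and 4.31 CPM with PD, so its lowest control was 9.06 times its highest PD library. The log2 fold change of Spry2 was -3.81 (SE 0.36, edgeR adjusted p = 0.0417). Spry1 was at 17.0 and 13.3 CPM in the controls and at 1.08 and 2.05 CPM with PD. Its groups did not overlap, but its log2 fold change of -3.28 (SE 0.48) did not pass (edgeR adjusted p = 0.106). The PD libraries disagreed on these genes by similar factors in opposite directions, as Spry2 was 1.95 times higher in replicate 1 and Spry1 was 1.91 times higher in replicate 2.

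Spred1 and Spred2 differed little between the PD libraries. Spred1, which is mutated in Legius syndrome, was at 53.0 and 49.9 CPM in the controls and at 6.88 and 6.84 CPM with PD, a ratio of 1.01 between the PD libraries. Its log2 fold change was -2.91 (SE 0.21, edgeR adjusted p = 0.0378), the smallest SE of the 7. Spred2 was at 10.0 and 6.40 CPM in the controls and at 0.500 and 0.483 CPM with PD (13 and 12 counts). Its log2 fold change of -4.05 (SE 0.50) did not pass (edgeR adjusted p = 0.0871), although its lowest control was 12.8 times its highest PD library. Spred3 was at 4.76 and 3.65 CPM in the controls and at 0.154 and 0.242 CPM with PD, which are 4 and 6 counts (log2 fold change -4.38, SE 0.70, edgeR adjusted p = 0.108). For Spred3 the mean with PD was 4.70% of that in controls, the lowest share among members that were detected.

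Il17rd kept the largest share of its control level. It was at 11.8 and 7.19 CPM in the controls and at 1.35 and 2.01 CPM with PD, and the mean with PD was 17.7% of that in controls. The log2 fold change was -2.50 (SE 0.45, edgeR adjusted p = 0.136), with a 95% interval from -3.57 to -1.43. That interval overlaps those of Spred1 (-3.41 to -2.40), Spry1 (-4.43 to -2.12) and Spry2 (-4.68 to -2.94). It also overlaps those of Spred2 (-5.25 to -2.84) and Spred3 (-6.06 to -2.71). No test of the difference between members was made.

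**Figure D2:**
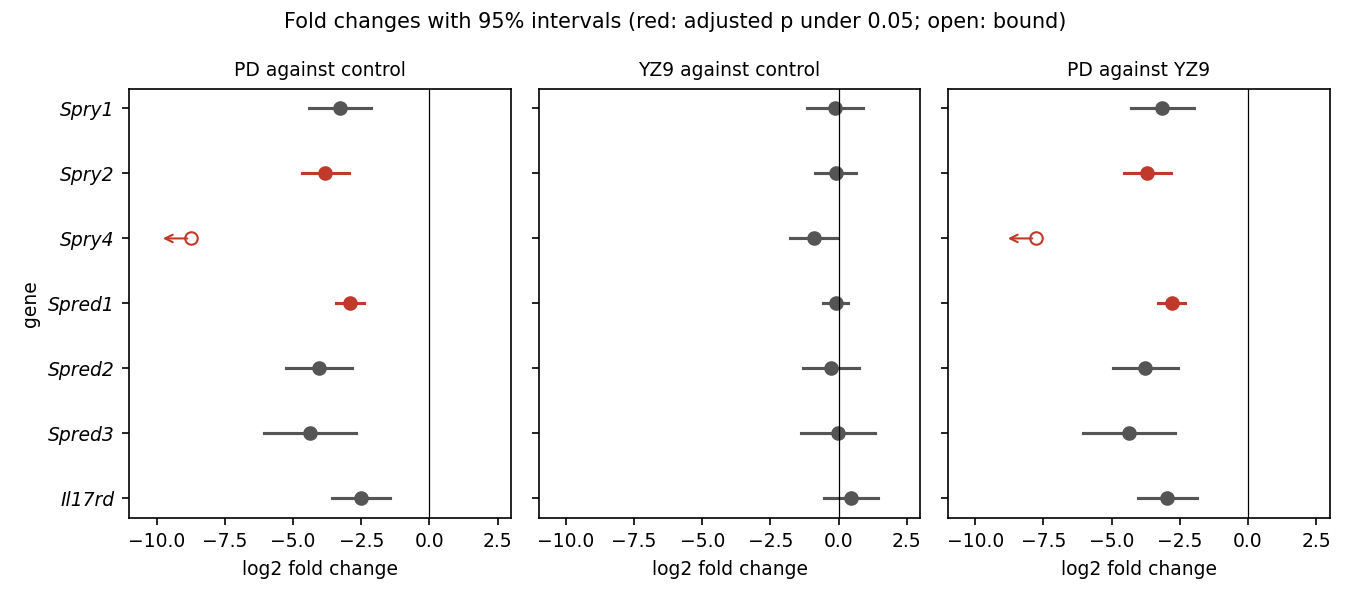
Log2 fold change of each gene in the 3 comparisons (horizontal axis) with its 95% interval from edgeR, in red where the adjusted p was under 0.05. Open circles with arrows give the bound for Spry4, which had 0 counts with PD. With PD every interval lies below 0, and against control with YZ9 every interval but that of Spry4 spans 0.

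The members that did not pass were separated from the controls in the same way. All 7 had an unadjusted p under 0.05 and lower PD values, against 5.38% of all genes tested, and all 7 had PD libraries below both controls, against 19.5% of all genes. Their log2 fold changes had a median of -3.81, also with Spry4 at its bound, against a median of 0.00441 over all genes. A log2 fold change of -2 or lower was reached by all 7 and by 2.36% of genes tested. In the authors' deposited table, all 7 were lower with PD, at adjusted p from 5.85e-24 for Spred1 to 7.60e-05 for Il17rd, where 301 genes or 1.86% of those with an adjusted p were lower. Without PD replicate 1, and likewise without PD replicate 2, edgeR called Spry2, Spry4 and Spred1. The edgeR calls rested on both controls: without control replicate 1, and likewise without control replicate 2, edgeR called 0 members and 0 genes in all, while all 7 members kept an unadjusted p under 0.05. DESeq2 called all 7 lower on the same genes, where it called 2.05% of genes lower. Without the filter on low counts edgeR also called all 7, where 1.30% of genes were called lower. It called all 7 in the 4 libraries with Y-linked counts, where 1.01% of genes were called lower, but these hold 1 PD and 1 YZ9 library, so the spread came from the controls alone.

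**Figure D3:**
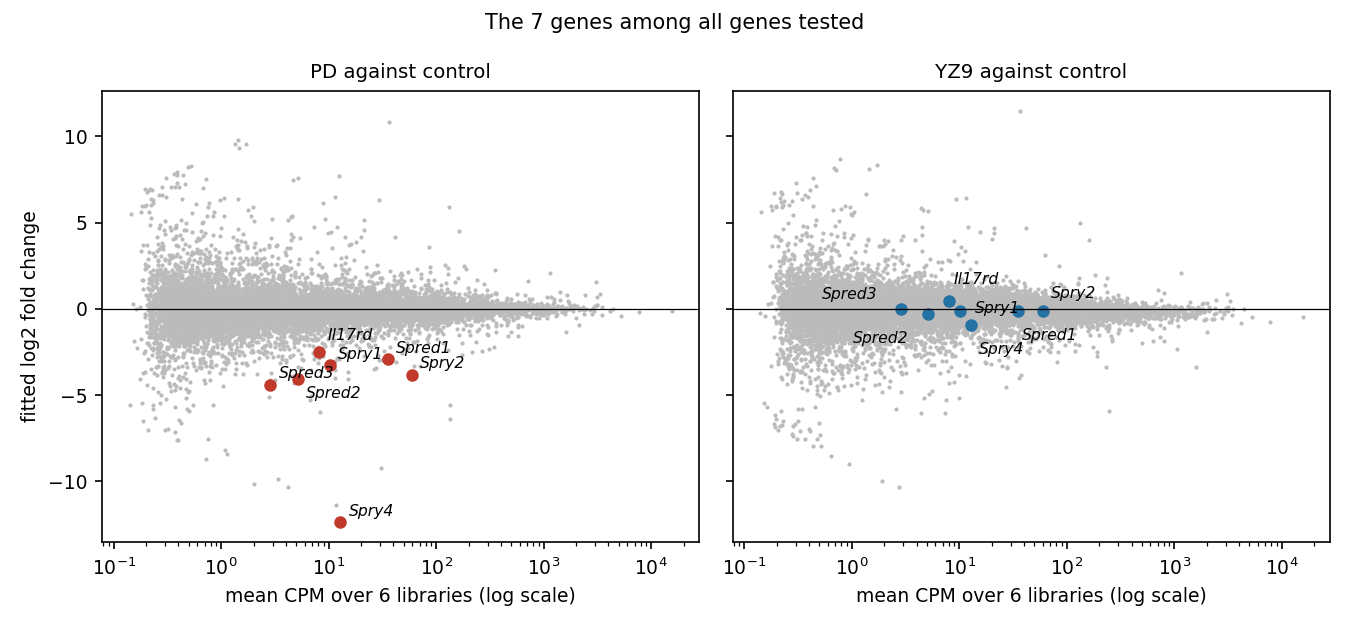
Fitted log2 fold change (vertical axis) against the mean CPM over the 6 libraries (horizontal axis, logarithmic) for all 15568 genes tested (grey), with the 7 genes in colour. With PD (left) the 7 genes lie toward the lower edge of the cloud at their level, and with YZ9 (right) they lie within it. The value for Spry4 with PD depends on the prior count of the fit and is not a bound.

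Because the members kept different shares of their control level, the make-up of the remaining transcript was examined per kilobase. The 3 Sprouty and 3 Spred genes summed to 58.1 and 68.6 RPKM in the controls, 5.55 and 3.92 RPKM with PD, and 63.9 and 48.8 RPKM with YZ9. PD libraries thus lay below all others. With PD the order was Spry2 at 3.05 ± 1.39 RPKM, Spred1 at 1.01 ± 0.00402, Spry1 at 0.538 ± 0.238, Il17rd at 0.153 ± 0.0429, Spred2 at 0.106 ± 0.00256 and Spred3 at 0.0318 ± 0.00998 (SD, n = 2), with Spry4 at 0. Neighbours in that order did not overlap, and Il17rd stood above Spred2, whereas it stood below Spred2 in the controls. Spry2 held 62.9% and 71.6% of this sum in the controls, 72.7% and 52.6% under PD, then 67.9% and 73.6% under YZ9, so 1 PD library was below all others and 1 was within their range. The share of Spred1 was 13.5% and 10.7% in the controls, 18.3% and 25.7% under PD, then 12.2% and 12.8% under YZ9. It was higher in both PD libraries than in the other 4, and the share of Spry4 went from 8.54% and 8.07% in the controls to 0 with PD. Together the Sprouty genes made up 81.5% and 86.4% of the sum in the controls, 79.3% and 70.6% under PD, then 83.2% and 84.4% under YZ9. An exact permutation test of 2 libraries against 2 cannot give a p below 0.333, and none is given for the shares.

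**Figure D4:**
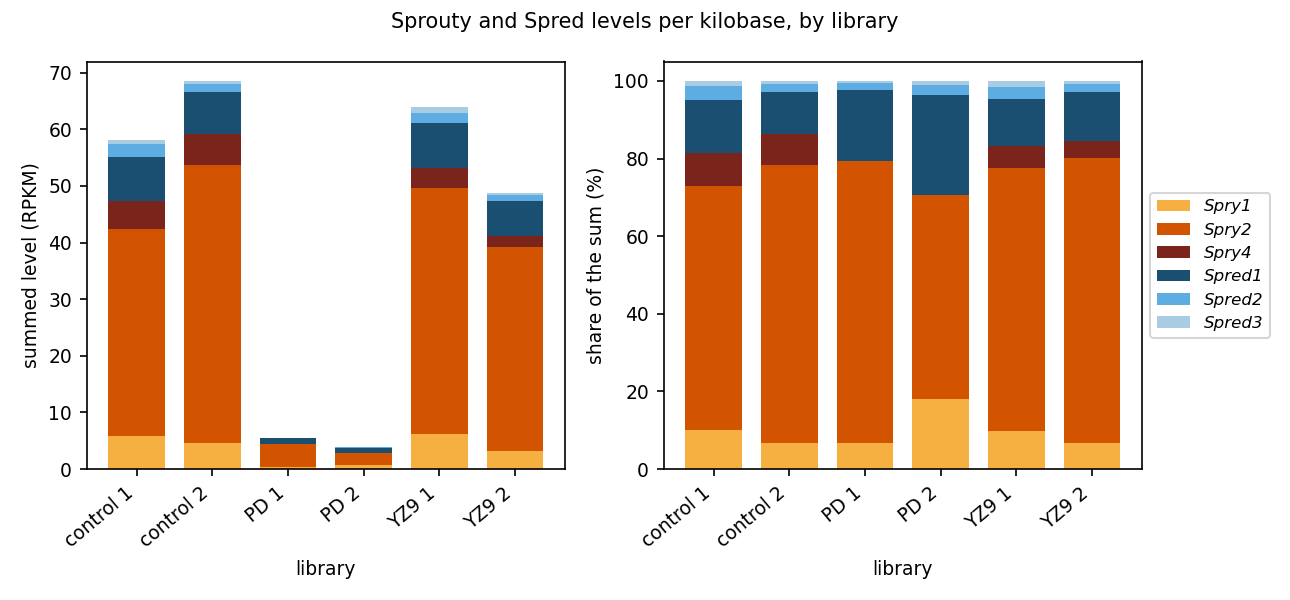
Summed level of the Sprouty and Spred genes in RPKM (left) and the share of each gene in that sum in percent (right), for each library. The PD bars reach 5.55 and 3.92 RPKM against at least 48.8 in the other libraries, and in them the Spred1 share (dark blue) is 18.3% and 25.7%.

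YZ9 was compared with control to ask whether an inhibitor of PFKFB3 moved the same genes. By edgeR 0 of the 7 genes passed the threshold, where it called 1 or 0.00642% of all genes. DESeq2 and limma-trend also called 0 of the 7, where they called 3.33% and 0.00642% of all genes, and the authors' deposited table lists 0 of the 7, against 3.85% of its genes. At an unadjusted p under 0.05, edgeR had 1 of the 7 lower, against 6.93% of all genes. Spry4 had the largest difference, at 16.9 and 9.65 CPM with YZ9 against 23.6 and 26.3 CPM in the controls. Both YZ9 libraries were below both controls, which 24.5% of all genes tested also showed. Its log2 fold change was -0.91 (SE 0.35, 95% interval -1.78 to -0.05), with an unadjusted p of 0.0420 and an edgeR adjusted p of 0.422, and the authors' deposited table lists an adjusted p of 0.170. It kept its sign in 15 of 15 alternative settings, at log2 values from -1.36 to -0.55, but these settings reuse the same libraries. With limma-trend, and with sex as a covariate, no member reached an unadjusted p under 0.05.

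The other 6 genes overlapped between YZ9 and control libraries. Spry2 was at 90.6 and 74.9 CPM with YZ9 (log2 fold change -0.11, 95% interval -0.88 to 0.65) and Spred1 at 53.0 and 42.3 CPM (log2 fold change -0.11, 95% interval -0.57 to 0.35). For these abundant members the intervals leave room for a change of less than 1 on the log2 scale in either direction. Spry1 was at 18.2 and 9.48 CPM (95% interval of the log2 fold change -1.16 to 0.89) and Spred2 at 8.87 and 4.69 CPM (-1.29 to 0.74). Spred3 was at 6.14 and 2.16 CPM (-1.37 to 1.32), the widest interval. Il17rd was the only member with a positive log2 fold change with YZ9, at 16.5 and 9.61 CPM (0.46, 95% interval -0.53 to 1.45, edgeR adjusted p = 0.704). All 7 genes were higher in YZ9 replicate 1 than in YZ9 replicate 2, by 1.21 times for Spry2 to 2.84 times for Spred3. The share of all genes with that order is not given. These 2 libraries also differ in embryo and sex, as replicate 1 had the Y-linked counts.

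PD and YZ9 were then compared directly, with the same fit, as the test of whether the inhibitors differed on these genes. All 7 were lower in both PD libraries than in both YZ9 libraries, which 21.4% of all genes also showed. Spry2, Spry4 and Spred1 passed in edgeR (adjusted p = 0.0421, 0.0276 and 0.0276), where 7 genes or 0.0450% of all were called lower. Spry4, with 378 and 286 counts in the YZ9 libraries, was at least 217-fold lower with PD. Spred1 had a log2 fold change of -2.79 (SE 0.21) and Spry2 of -3.70 (SE 0.36). Among the others the log2 fold change was -3.14 (SE 0.48) for Spry1, -3.77 (SE 0.50) for Spred2, -4.36 (SE 0.70) for Spred3 and -2.95 (SE 0.45) for Il17rd, at edgeR adjusted p from 0.0748 to 0.108. For Il17rd the lowest YZ9 library was 4.78 times the highest PD library, and the lowest control was 3.57 times that library. The calls ended in the 4 libraries of this comparison alone and without either control, where edgeR called 0 members and 0 genes. Leaving out any PD or YZ9 library left 2 or 3 members called.

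The rest of the pathway was read from lists of genes ordered by role. Upstream of the feedback inhibitors, no list had a member past the threshold with PD by edgeR. Over all genes tested, 10.8% had an unadjusted p under 0.05 with PD in either direction, and the counts at that p in the lists are to be read against this share. Of the 8 FGF ligand genes tested, 1 was higher and 1 lower at an unadjusted p under 0.05, and the smallest p was that of Fgf8, a ligand of the streak, whose control level of 3.40 ± 1.61 CPM compared with 0.662 ± 0.423 CPM in PD explants (n = 2, edgeR adjusted p = 0.228). Of 18 receptor tyrosine kinase genes, 2 were higher and 0 lower at an unadjusted p under 0.05, led by Fgfr2, an FGF receptor, at 26.4 ± 12.5 and 81.8 ± 10.6 CPM (n = 2, edgeR adjusted p = 0.188). Of 12 adaptor and RAS exchange genes, 0 reached an unadjusted p under 0.05, and Frs2, the docking protein of FGF receptors, had the smallest p (log2 fold change 0.60, edgeR adjusted p = 0.580). Of 16 RAS, RAF, MEK and ERK genes, 2 were higher and 0 lower at that p, led by Mras, a RAS relative, at 3.34 ± 1.32 and 12.0 ± 0.667 CPM (n = 2, edgeR adjusted p = 0.164). The medians of these 4 lists were 0.16, -0.01, 0.03 and 0.13 on the log2 scale. DESeq2 called 1, 1, 0 and 1 of their genes, where it called 4.04% of all genes in either direction, and limma-trend called 0 in each, against 0.128% of all genes.

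Proteins that work with Sprouty and Spred were measured as well. Of 9 RAS-GAP genes, 1 was higher and 2 lower at an unadjusted p under 0.05 and 0 passed in edgeR. The smallest p belonged to Nf1, which encodes the neurofibromin that Spred proteins recruit, with levels of 37.4 ± 0.302 CPM (control), 23.3 ± 0.105 CPM (PD) and 28.4 ± 2.26 CPM (YZ9), n = 2 each. Its log2 fold change with PD was -0.68 (SE 0.19, edgeR adjusted p = 0.238). Nf1 also had the smallest p among the 16 partners of Sprouty and Spred proteins, of which 0 were higher and 2 lower at that p and 0 passed in edgeR. Cbl, a ubiquitin ligase bound by Sprouty proteins, had a log2 fold change of -0.56 (edgeR adjusted p = 0.711). DESeq2 called 2 genes in each of these lists and limma-trend 0. The median log2 fold change was -0.30 in RAS-GAP genes and -0.07 in partners.

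Other genes that ERK is known to induce were tested as well. Of 23 transcriptional targets of ERK tested, 0 rose, 2 fell and 21 did not pass in edgeR, with a median log2 fold change of -1.19, and 13 were lower at an unadjusted p under 0.05, against 5.38% of all genes. Those that fell were Ccnd1, the cyclin D1 gene, at a log2 fold change of -3.34 (adjusted p = 0.0378), and Egr1, an immediate early factor, with 37.7 ± 12.2 and 0.0586 ± 0.0259 CPM (n = 2, edgeR adjusted p = 0.0417). Of 18 other feedback inhibitors tested, 0 passed in edgeR, 2 were higher and 5 lower at an unadjusted p under 0.05, and the median was -0.40. Dusp6, the ERK phosphatase, had the smallest p there (log2 fold change -6.40, edgeR adjusted p = 0.0655). DESeq2 called 9 targets and 5 other feedback inhibitors, and limma-trend called 3 and 1, against the 4.04% and 0.128% of all genes given above. With YZ9, edgeR called 0 genes in each of the 8 lists, DESeq2 called 1 receptor and 1 partner gene, limma-trend called 0, and 0 to 2 genes of a list were higher and 0 to 2 lower at an unadjusted p under 0.05, which 11.3% of all genes reached in either direction. The median log2 fold changes of the lists with YZ9 ran from -0.15 to 0.26.

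**Figure D5:**
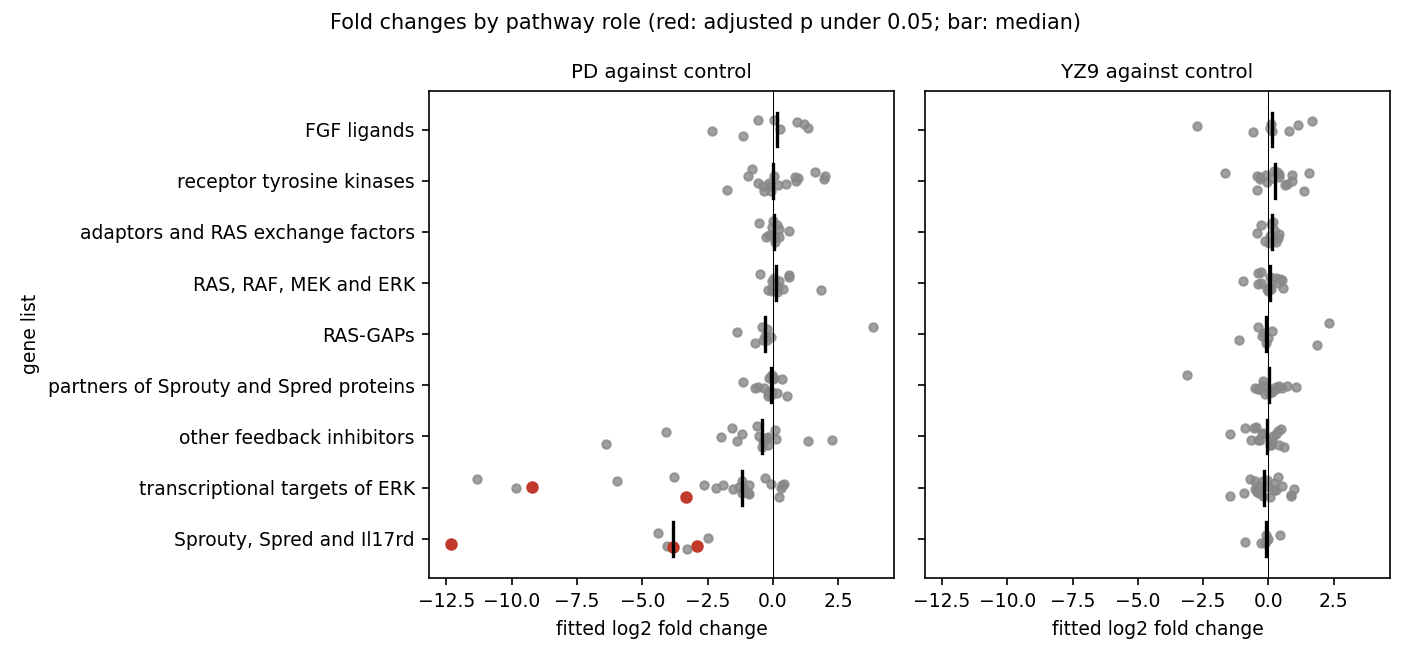
Fitted log2 fold change (horizontal axis) of each gene tested, by role in the pathway (rows), with PD (left) and YZ9 (right). Points are genes, red where the edgeR adjusted p was under 0.05, and black bars are medians. The 7 genes in the bottom row have a median of -3.81 with PD, and lists upstream of ERK have medians near 0. Genes at 0 counts with PD, such as Spry4, have fitted values that are no bound.

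Among 11638 other genes with a mean control count of at least 50, those closest in pattern to the mean of the 7 were sought by the root mean square difference, over the 6 libraries, of log2(CPM + 1) from its control mean. The nearest was Ccnd1 (difference 0.20 on the log2 scale), at 113 and 77.6 CPM in the controls, 9.26 and 9.62 under PD, then 94.0 and 69.8 under YZ9. Next were Ppp1r14c, which encodes a protein phosphatase inhibitor (0.22), Tdgf1, the NODAL co-receptor Cripto (0.25), Dock5, an exchange factor for RAC (0.36), and Il11, a cytokine gene (0.38). Tdgf1 was at 10.1 and 9.52 CPM in the controls, 0.577 and 0 under PD, then 13.5 and 6.95 under YZ9, and it was also the nearest to Spry2 alone (0.40), ahead of Ccnd1 (0.47) and the ETS factor gene Etv1 (0.53). Spred1 alone was nearest to Ppp1r14c (0.20), Ccnd1 (0.30) and Dock5 (0.32). The measure was computed over the same libraries that define the groups. The 1 CPM added before the logarithm limits how far genes at low levels can fall in it. Etv1 and Il11 had fitted log2 fold changes with PD of -5.98 and -5.08, against -3.81 for Spry2. Likeness here is therefore not likeness in fold change. Of the 5 genes nearest to the mean, 3 stayed among the nearest 5 with 0.1 or with 5 CPM added before the logarithm.

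Markers of other cell types were read in the same libraries. By edgeR 0 genes of these lists passed the threshold with PD or with YZ9, and sums are carried by a few abundant genes, so counts at an unadjusted p under 0.05 and medians are given with them. Over all genes tested, 10.8% with PD and 11.3% with YZ9 reached that p in either direction. The 10 markers of definitive endoderm and epithelium summed to 4690 to 5312 CPM in control, 6970 to 10924 in PD and 5363 to 6653 in YZ9 libraries, mostly from the keratin genes Krt8 and Krt18. Of the 9 tested, 6 were higher and 0 lower at that p with PD, and also with YZ9, at median log2 fold changes of 4.00 and 2.30. The tight junction gene Cldn6 was at 0.262 and 8.28 CPM in the controls, 449 and 56.5 CPM with PD, and 200 and 75.5 CPM with YZ9. Cdh1, which encodes E-cadherin, was at 1.84 and 3.80 CPM in the controls, 79.8 and 21.6 CPM with PD, and 113 and 30.7 CPM with YZ9. Cer1 was at 0 in the controls and with YZ9.

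The 10 visceral endoderm markers summed to 250 to 256, 74.6 to 205 and 280 to 313 CPM in control, PD and YZ9 libraries, and most of each control sum was Apoe, at 244 CPM in both controls and at 114 and 56.9 CPM with PD. Of the 7 tested, 3 were higher and 1 (Apoe) lower at that p with PD, at a median log2 fold change of 2.31, and 0 with YZ9. Afp, the alpha-fetoprotein gene, was at 0.899 and 0.565 CPM in the controls and at 34.3 and 5.76 CPM with PD. Apoa4 was at 0 in the controls and with YZ9. The 6 trophoblast markers summed to 171 to 207, 311 to 513 and 175 to 226 CPM. Krt7 and Plac1 were higher with PD and Cdx2 and Gata3 lower at that p, and the median log2 fold change of the 5 tested was -0.82. With YZ9 1 was higher and 1 lower, at a median of 0.37. Elf5 was at 0 with YZ9.

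The 8 heart markers summed to 4318 to 5216 CPM in control, 1466 to 4095 in PD and 1783 to 3592 in YZ9 libraries. With PD 0 were higher and 2 lower at that p, at a median log2 fold change of -1.30. With YZ9 0 were higher and 1 lower, at a median of -0.33. The 10 blood and endothelial markers summed to 2456 to 6885 CPM in control, 651 to 6332 in PD and 203 to 1378 in YZ9 libraries. Here 0 were higher and 2 lower at that p with PD, and also with YZ9, at medians of -0.58 and -0.74. The 8 epiblast and ectoderm markers summed to 10.7 to 15.9, 8.38 to 14.8 and 11.0 to 16.2 CPM. Of the 5 tested, 1 was higher and 0 lower at that p with PD, and also with YZ9. Sox1 was at 0 in all groups. The part of these markers in the levels of the 7 genes was not tested.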

How the data were processed

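RNA from 6 mouse explant libraries (2 control, 2 PD, 2 YZ9) was analysed from 2 deposited tables. Per the submitters' processing notes, the authors used CASAVA 1.8.2, STAR 2.7.9a, DESeq2 1.40.1 and the build GRCm38, with the counter and annotation release not given in the sources used here. Per the file headers, the deposited tables hold whole-number counts per gene, a normalized signal (counts over a size factor per library), a log2 fold change with its error, a Wald score, and p-values of the authors' DESeq2 test. Control counts were identical in both tables and were joined.

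In R 4.3.3, genes were filtered with filterByExpr (minimum count 10, minimum total 15), scaled by TMM, and fitted together with edgeR 4.0.16 (glmQLFit, glmQLFTest, 2-sided), with adjustment over all 15568 genes at 0.05. The SE of a log2 fold change is its size divided by the root of the F statistic. Means are ± SD. Floors cover counting error only. Depth was 21253194 to 27810161 counts, and Spred3 with PD rests on 4 and 6 counts. Exon lengths came from GENCODE M21. Alternatives were DESeq2 size factors and DESeq2 1.42.0, limma-trend (limma 3.58.1, prior count 3), other filters, fewer libraries, a replicate block, sex as a covariate, total counts, transcript length and other values added before the logarithm. The scripts were tested on simulated data.

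The members and gene lists were chosen with earlier results of these data known. Named genes were all 7 members, of each list the genes past the threshold with PD (up to 4) or else the one with the smallest p, and the 5 genes nearest in pattern to the members and 3 nearest to Spry2 and Spred1. Cbl and the marker genes were named outside that rule after their values were seen.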

Additional observations from a re-analysis of the deposited data

How the results depend on the processing

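All 7 genes kept a lower value with PD than in controls, and than with YZ9, in each of the 15 alternative settings. The count of members past the threshold with PD against control, 3 by edgeR, was 7 with no filter, 7 with DESeq2 and 7 in the libraries with Y-linked counts alone (2 control, 1 PD and 1 YZ9), 0 to 4 when leaving out 1 library (0 without either control), and 4 with sex as a covariate. Against YZ9, also 3, it was 7 with no filter, with DESeq2, with sex as a covariate and in the libraries with Y-linked counts (there 1 library against 1, with the spread taken from the controls alone), 0 in the 4 libraries of the comparison, and 0 to 3 when leaving out 1 library. With YZ9 against control it was 0 in all 15. The number of all genes past the threshold, 15 with PD, 1 with YZ9 and 19 between them, was 712, 556 and 601 with no filter, 629, 519 and 534 with DESeq2, 124, 122 and 173 with sex as a covariate, and 428, 183 and 132 in the libraries with Y-linked counts. It was 5 with YZ9 and 0 between the inhibitors in 4 libraries, 34 between the inhibitors with limma-trend, and ranged from 0 to 33, 0 to 9 and 0 to 35 when leaving out 1 library. The cause of these shifts was not tested. Where a group was left with 1 library, that library was assumed to vary like the others.

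The replicate number pairs libraries only by name: the correlation of deviations was -0.13 between control and PD, 0.30 between control and YZ9 and 0.38 between PD and YZ9. With the replicate block edgeR called 0 members and 1 gene with PD, 0 members and 3 genes with YZ9, and 1 member (Spred1) and 12 genes between the inhibitors.

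With YZ9 against control, log2 fold changes changed sign in 5 members, none past the threshold in any setting. Leaving out 1 library gave -0.67 to 0.28 for Spry1, -0.31 to 0.11 for Spry2, -0.27 to 0.0567 for Spred1, -0.80 to 0.13 for Spred2 and -0.95 to 0.56 for Spred3. Values above 0 came without YZ9 replicate 2 in all 5 and without a control in Spry1, Spry2, Spred2 and Spred3. The libraries with Y-linked counts alone gave 0.28, 0.0342, 0.0569, 0.13 and 0.56 for these genes in turn. With sex as a covariate Spry2 was at 0.19 and Spred3 at 0.27. Low counts limit Spred2 and Spred3 with PD, at 4 to 13 counts per library.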
